A study of Mus musculus with 6 samples.

Results

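The 38 Hox genes described here were taken from 35275 genes with read counts in NIH3T3 cells, a line of mouse embryo fibroblasts. They were taken by a rule on names, as coding genes of the Hoxa, Hoxb, Hoxc and Hoxd clusters. The rule uses no measured value, but the members were chosen with earlier results of these data known. RNA was sequenced from 6 libraries, 3 labelled as NIH3T3 cells that overexpress NgBR, the Nogo-B receptor encoded by Nus1, and 3 from wild-type NIH3T3 cells. The overexpressing cells were transfected with a pIRES plasmid for HA-tagged NgBR and kept under G418 selection to give stable cells, per the labels' protocols. The promoter of the plasmid, and whether the line is a single clone or a pool, are not stated in the sources used here, and no vector-only line was analysed here. Both lines were grown in DMEM with calf serum. The replicates are numbered 1 to 3 in each group and the labels do not tie them to separate cultures, and the p-values below therefore cover library-to-library spread alone, part or all of which may be technical.

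Hox genes encode homeodomain transcription factors that give cells their position along the body axis and along the limbs. The genes of a cluster lie in the order in which they are used, with low paralogue numbers active toward the head and high numbers toward the tail and the tips of the limbs. Retinoic acid and Cdx factors open the clusters in the embryo, Trithorax proteins hold them active and Polycomb proteins hold them silent. Fibroblasts keep, in culture, the Hox pattern of the body site they came from. In what follows, paralogues 1 to 3 are called anterior, 4 to 8 central and 9 to 13 posterior.

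In the NgBR-labelled libraries, 11 of the 26 Hox genes with enough reads for a test were higher than in wild type and 0 were lower. The higher genes were Hoxb4, Hoxb5, Hoxb6, Hoxb8 and Hoxb9, Hoxc4, Hoxc9 and Hoxc10, Hoxd10 and Hoxd11, and Hoxa13. The background for this count is 3.39% of all 12651 tested genes called, 2.04% higher and 1.35% lower, by edgeR's quasi-likelihood test at a Benjamini-Hochberg adjusted p under 0.05. At an unadjusted p under 0.05, 16 Hox genes were higher and 0 lower, beside 797 higher and 647 lower of all 12651 tested genes. DESeq2 called 14 Hox genes higher and 0 lower, beside 446 higher and 273 lower of the same 12651. The median log2 fold change of the tested Hox genes, labelled NgBR over wild type, was 1.61, beside -0.01 for all tested genes. Positive fold changes were found for 21 of the 26, against 48.7% of all tested genes. The filter on low counts, 0.502 CPM (counts scaled to library depth) in at least 3 libraries, fixed part of these numbers, since 7 of the 26 passed it in 0 wild-type libraries and so had to be higher. Over the 17 Hox genes that passed it in all 3 wild-type libraries, 5 were called higher and 0 lower, 12 had positive fold changes and the median was 0.43, beside 1.13% called higher, 47.1% positive and a median of -0.02 over 11984 such genes. Those 11984 still include genes that passed through the wild-type libraries alone and so had to be lower, which tilts this background downward.

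Counts at Nus1, the gene named by the label, were not higher in these libraries. Nus1 was measured at 184, 185 and 165 CPM in the NgBR-labelled libraries, against 212, 187 and 233 CPM in wild-type libraries, a log2 fold change of -0.24 ± 0.21 (SE; adjusted p = 0.786 by edgeR). Reads of a transgene may not be counted at the mouse gene, so each direction below is that of the label only. Depth differed 3.5-fold between the groups, with totals of 7369961 to 10358381 counts in the NgBR-labelled libraries and 29515072 to 35511769 in wild-type libraries. A count of 3 over a group stands for 0.108 CPM in the NgBR-labelled libraries and 0.0307 CPM in wild type, which covers counting error only. The first principal component (46.5% of the variance) separated the groups, and the second (28.6%) set both libraries numbered 2 apart from the rest. Without those 2 libraries 11 Hox genes were again called higher, with Hoxd11 lost (edgeR adjusted p = 0.0601) and Hoxa5 gained (edgeR adjusted p = 0.0214).

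Central genes of the Hoxa and Hoxd clusters led the Hox pattern in both groups. Levels are compared between genes as CPM per kb of exonic length. In the NgBR-labelled libraries the order began with Hoxa5 at 29.5 ± 11.6, Hoxd8 at 16.6 ± 2.43, Hoxa6 at 12.5 ± 2.26, Hoxa7 at 11.4 ± 1.37 and Hoxb9 at 10.3 ± 3.89 CPM per kb (SD, n = 3). In wild type the 5 highest members were Hoxd8 at 18.6 ± 3.45, Hoxa7 at 14.4 ± 5.10, Hoxa5 at 13.4 ± 2.58, Hoxd9 at 10.2 ± 1.36 and Hoxa6 at 8.90 ± 2.73 CPM per kb. Neighbours in the wild-type order lay within each other's spread. Hoxb9, at rank 5 in the NgBR-labelled libraries, was at rank 10 in wild type, at 1.92 ± 0.468 CPM per kb. The 5 genes that led in wild type took 59.1 ± 3.81% of the summed Hox level in the NgBR-labelled libraries and 78.3 ± 1.63% in wild type.

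**Figure D1:**
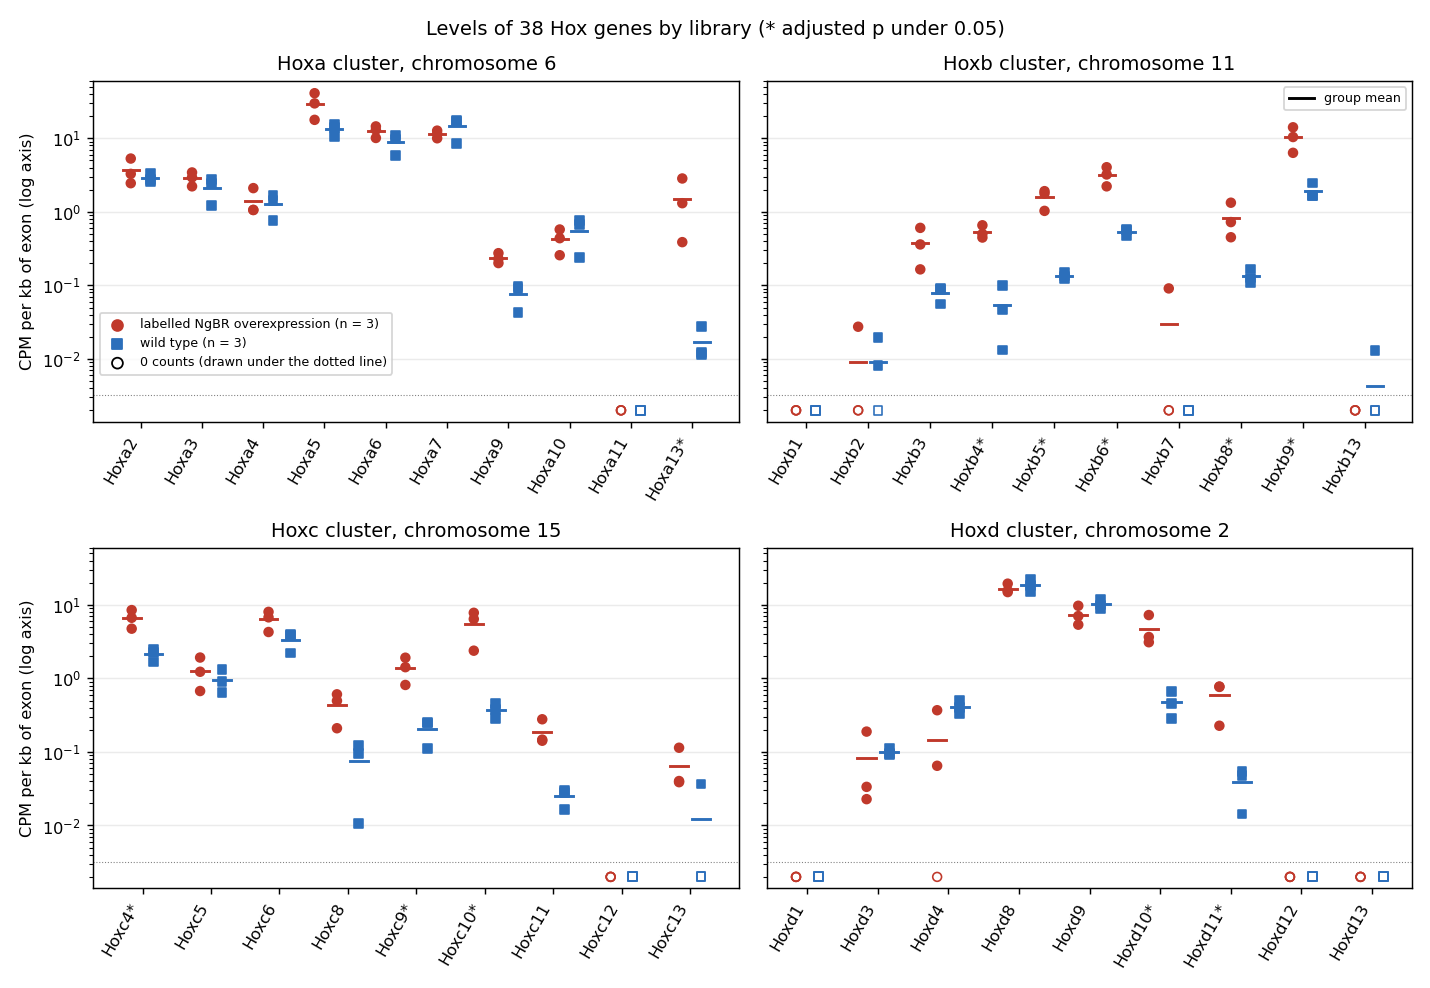
Level of each Hox gene in CPM per kb of exonic length on a log axis, with each cluster in a panel of its own and genes in order of paralogue number. Circles are the 3 libraries labelled NgBR overexpression, squares the 3 wild-type libraries, short lines the group means, open symbols under the dotted line 0 counts, and asterisks mark called genes. Hoxd8, Hoxa7 and Hoxa5 are high in both groups, and the points of Hoxb5, Hoxc10 and Hoxd10 stand apart.

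In the Hoxb cluster (mm10 chromosome 11, 96194316 to 96368256, plus strand) 6 genes were tested and 5 were called higher. Of these 6, Hoxb3, Hoxb4, Hoxb5 and Hoxb8 passed the filter through the NgBR-labelled libraries alone, so that their positive direction was fixed and the count is a description. Hoxb6 and Hoxb9 are free of this, and both were called higher, with a median log2 fold change of 2.48. Hoxb5 (ENSMUSG00000038700, 96303336 to 96306121), a gene used in the embryonic lung and the neural crest, was at 5.33, 2.87 and 4.97 CPM in the NgBR-labelled libraries, against 0.344, 0.372 and 0.421 CPM in wild-type libraries. The groups did not overlap, with a log2 fold change of 3.51 ± 0.41 (SE; adjusted p = 0.00211 by edgeR). Hoxb9 (ENSMUSG00000020875, 96271457 to 96276595), a posterior gene of the rib-bearing trunk, was the most abundant called member in the NgBR-labelled libraries, at 36.3, 16.3 and 26.7 CPM in the NgBR-labelled libraries and 4.24, 6.33 and 4.24 CPM in wild-type libraries. Its lowest labelled library stood above its highest wild-type library, with a log2 fold change of 2.42 ± 0.34 (SE; adjusted p = 0.0049 by edgeR). Hoxb6 (ENSMUSG00000000690, 96292476 to 96301569), a central gene of the trunk, was at 6.31, 4.35 and 7.93 CPM in the NgBR-labelled libraries, against 0.945, 1.12 and 1.11 CPM in wild-type libraries, with a log2 fold change of 2.54 ± 0.35 (SE; adjusted p = 0.00408 by edgeR).

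Hoxb4 and Hoxb8 rested on fewer reads. Hoxb4 (ENSMUSG00000038692, 96318267 to 96321638), known for its part in blood stem cells, had 12, 13 and 12 counts in the NgBR-labelled libraries and 9, 1 and 4 counts in wild-type libraries, which are several times deeper. In CPM these were 1.68, 1.29 and 1.15 in the NgBR-labelled libraries and 0.258, 0.0338 and 0.12 in wild type, without overlap (log2 fold change 3.22 ± 0.63 SE, adjusted p = 0.0263 by edgeR). Hoxb8 (ENSMUSG00000056648, 96281905 to 96285315), which is active in myeloid progenitors and in the trunk, had 25, 12 and 20 counts in the NgBR-labelled libraries and 10, 13 and 11 in wild-type libraries. Its levels of 3.51, 1.19 and 1.91 CPM in the NgBR-labelled libraries lay above 0.286, 0.440 and 0.331 CPM in wild type (log2 fold change 2.60 ± 0.52 SE, adjusted p = 0.0267 by edgeR). Hoxb4 was not called without any 1 of the NgBR-labelled libraries (edgeR adjusted p = 0.125, 0.0717 and 0.0792 without libraries 1, 2 and 3) or without wild-type library 2 or 3 (0.0518 and 0.0877), and its value was 4.0 without wild-type library 1. Hoxb8 was not called without library 1 or 3 labelled NgBR (edgeR adjusted p = 0.126 and 0.0818) or without any 1 wild-type library (0.121, 0.0603 and 0.0925 without libraries 1, 2 and 3).

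Hoxb3, an anterior gene of the hindbrain, was the only tested Hoxb gene that was not called. It had 0.702, 2.57 and 1.53 CPM in the NgBR-labelled libraries and 0.372, 0.237 and 0.391 CPM in wild-type libraries, without overlap (log2 fold change 2.27 ± 0.55 SE, adjusted p = 0.0629 by edgeR). DESeq2 called it (adjusted p = 0.00681), as did edgeR with no filter on low counts (adjusted p = 0.0361). Hoxb1, at the anterior end, had 0 counts in every library. Hoxb2, Hoxb7 and Hoxb13 had 1, 1 and 0 counts over the NgBR-labelled libraries and 3, 0 and 1 over wild-type libraries, so that genes with 0 or few counts lay next to genes that rose.

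The Hoxc cluster (chromosome 15, 102921103 to 103036852, plus strand) had 6 tested genes, and 3 were called higher. Of these 6, 4 passed the filter in all 3 wild-type libraries (Hoxc4, Hoxc5, Hoxc6 and Hoxc10), and over these 4 the fold changes were all positive (median 1.27 on the log2 scale), with 2 called. Hoxc10 (ENSMUSG00000022484, 102966796 to 102971893), a posterior gene of the lumbar region and the hindlimb, was at 14.9, 4.55 and 12.2 CPM in the NgBR-labelled libraries, against 0.716, 0.880 and 0.542 CPM in wild-type libraries. Library 2 was the lowest of the labelled libraries and still stood above every wild-type library (log2 fold change 3.87 ± 0.48 SE, adjusted p = 0.00293 by edgeR). Hoxc9 (ENSMUSG00000036139, 102976439 to 102985099), which sets thoracic identity in motor neurons, was at 4.63, 1.98 and 3.44 CPM in the NgBR-labelled libraries and 0.601, 0.271 and 0.602 CPM in wild-type libraries. The groups did not overlap (log2 fold change 2.73 ± 0.49 SE, adjusted p = 0.0159 by edgeR), but the call was lost without library 1 or 3 labelled NgBR (edgeR adjusted p = 0.0892 and 0.0674). Hoxc4 (ENSMUSG00000075394, 103018934 to 103036852), the most anterior gene of this cluster in the mouse, was at 17.1, 12.2 and 21.8 CPM in the NgBR-labelled libraries, against 6.33, 4.30 and 5.78 CPM in wild-type libraries. Its log2 fold change was 1.64 ± 0.30 (SE; adjusted p = 0.0174 by edgeR). The call was lost without library 1 or 3 labelled NgBR (edgeR adjusted p = 0.0831 and 0.0656) or wild-type library 2 or 3 (0.0535 and 0.0561).

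The other Hoxc genes were not called. Hoxc6, a central gene of the thorax and forelimb level, was at 16.3, 10.3 and 19.3 CPM in the NgBR-labelled libraries and 9.62, 5.31 and 9.36 CPM in wild-type libraries. Every labelled library stood above every wild-type library, with a log2 fold change of 0.91 ± 0.33 (SE; adjusted p = 0.279 by edgeR). Hoxc5 had overlapping ranges of 2.08 to 5.92 CPM in the NgBR-labelled libraries and 1.96 to 4.10 CPM in wild-type libraries (log2 fold change 0.41 ± 0.44 SE, adjusted p = 0.844 by edgeR). Hoxc8 had 34 counts in the NgBR-labelled libraries and 21 in wild type (log2 fold change 2.49, edgeR adjusted p = 0.147), and DESeq2 called it (adjusted p = 0.034). Of the most posterior genes, Hoxc11 had 10 counts over the NgBR-labelled libraries and 5 over wild type, a depth-scaled ratio of 7.05 with an exact 95% counting interval of 2.20 to 26.3. Hoxc13 had 4 counts in the NgBR-labelled libraries and 3 in wild type, a ratio of 4.70 (0.796 to 32.1), and Hoxc12 had 0 counts in every library.

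The Hoxd cluster (chromosome 2, 74668310 to 74765142, plus strand) held both called genes and genes with negative fold changes. Its median log2 fold change was -0.16 over 5 tested genes. Hoxd10 (ENSMUSG00000050368, 74691924 to 74695105), a posterior gene of the limb and lumbar spinal cord, was at 13.2, 6.63 and 5.64 CPM in the NgBR-labelled libraries, against 0.830, 1.22 and 0.512 CPM in wild-type libraries. The groups did not overlap, with a log2 fold change of 3.30 ± 0.47 (SE; adjusted p = 0.00487 by edgeR). Hoxd11 (ENSMUSG00000042499, 74679557 to 74687016), which patterns the forearm together with Hoxa11, was at 3.23, 3.26 and 0.955 CPM in the NgBR-labelled libraries and 0.229, 0.203 and 0.0602 CPM in wild-type libraries. Library 3 was the lowest of each group, and the groups did not overlap (log2 fold change 3.86 ± 0.66 SE, adjusted p = 0.0129 by edgeR). The call of Hoxd11 was lost without library 1 or 2 labelled NgBR (edgeR adjusted p = 0.0793 and 0.0536).

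Hoxd9, the next gene toward the anterior end from Hoxd10, was at 15.0, 11.5 and 20.7 CPM in the NgBR-labelled libraries and 21.2, 19.2 and 24.9 CPM in wild-type libraries. The ranges overlapped, with a log2 fold change of -0.47 ± 0.27 (SE; adjusted p = 0.611 by edgeR). Hoxd8, the highest member in wild type, was at 42.8, 53.2 and 40.8 CPM in the NgBR-labelled libraries and 50.7, 41.6 and 60.5 CPM in wild-type libraries, again overlapping (log2 fold change -0.16 ± 0.23 SE, adjusted p = 0.898 by edgeR). Hoxd4 had the most negative fold change of the tested members, -1.39 ± 0.77 (SE; adjusted p = 0.582 by edgeR). It had 0, 11 and 2 counts in the NgBR-labelled libraries and 41, 43 and 33 in wild-type libraries, so that library 2 of the labelled group lay within the wild-type range in CPM and the other 2 below it. Hoxd3 had 10 counts over the NgBR-labelled libraries and 41 over wild type, a depth-scaled ratio of 0.860 (0.384 to 1.75). Hoxd1, Hoxd12 and Hoxd13 had 0 counts in every library.

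The Hoxa cluster (chromosome 6, 52162417 to 52260880, minus strand) had the highest summed level in both groups, a median log2 fold change of 0.43 over 9 tested genes, and 1 gene called. That gene was Hoxa13 (ENSMUSG00000038203, 52257694 to 52260880), the most posterior of the cluster, which shapes digits, hindgut and urogenital tract. Hoxa13 had 23, 71 and 10 counts in the NgBR-labelled libraries and 1, 2 and 1 counts in wild-type libraries, or 3.23, 7.02 and 0.955 CPM in the NgBR-labelled libraries against 0.0286, 0.0677 and 0.0301 CPM in wild type. The labelled libraries differed several-fold among themselves and all stood above wild type, with a log2 fold change of 6.31 ± 0.88 (SE; adjusted p = 0.00453 by edgeR), which was 5.44 without library 2 labelled NgBR. Hoxa11, its nearest coding neighbour, had 0 counts in every library.

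Hoxa5 and Hoxa7, both uncalled, were among the 4 highest members in each group. Hoxa5, which is needed for lung and lower neck development, was at 76.9, 33.3 and 55.9 CPM in the NgBR-labelled libraries, against 26.1, 19.8 and 29.3 CPM in wild-type libraries. Every labelled library stood above every wild-type library (log2 fold change 1.14 ± 0.32 SE, adjusted p = 0.118 by edgeR). It passed the threshold with DESeq2 (adjusted p = 0.021), with no filter on low counts (edgeR adjusted p = 0.0333), with an offset for exonic length (edgeR adjusted p = 0.0497) and without library 2 labelled NgBR (edgeR adjusted p = 0.0318). Hoxa7, a central gene of the trunk, was at 36.6, 33.1 and 28.8 CPM in the NgBR-labelled libraries and 50.5, 24.6 and 49.5 CPM in wild-type libraries, with overlapping ranges (log2 fold change -0.34 ± 0.30 SE, adjusted p = 0.785 by edgeR). The anterior genes Hoxa2 and Hoxa3, the central Hoxa4 and Hoxa6, and the posterior Hoxa9 and Hoxa10 had log2 fold changes from -0.37 to 1.59, and 0 of these 6 were called by edgeR or DESeq2. Hoxa9 passed at an unadjusted p under 0.05, and only for it, of the 6, were the CPM ranges of the groups apart.

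**Figure D2:**
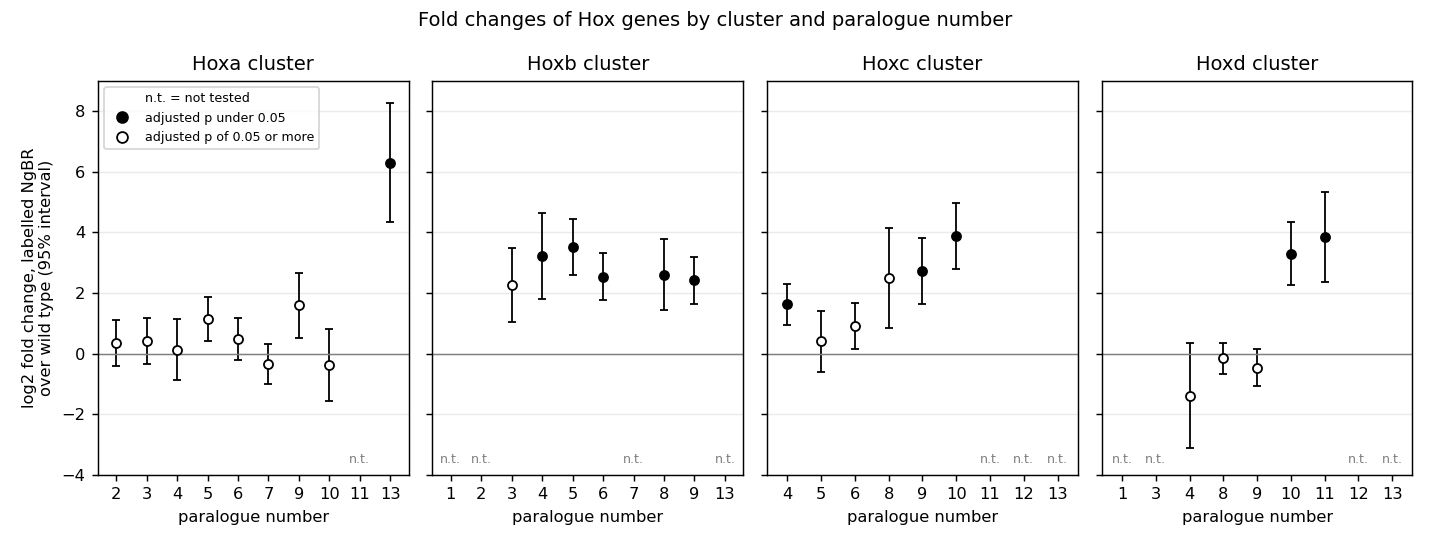
Log2 fold change of each tested Hox gene, libraries labelled NgBR overexpression over wild type, by cluster and paralogue number, with 95% intervals as bars and called genes filled. The tested Hoxb genes lie above 0, 4 of them by the filter, the highest value is Hoxa13 at 6.31, and Hoxd4 is the lowest at -1.39.

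By position, the called genes were central and posterior. Of the 3 tested anterior genes 0 were called by edgeR, with 1 at an unadjusted p under 0.05 and 1 called by DESeq2, Hoxb3 in both cases. Of 14 tested central genes 5 were called, and of 9 tested posterior genes 6, counts that include the genes fixed by the filter. The next counts cover the genes that passed the filter in all 3 wild-type libraries. Of these, 0 of 2 anterior, 2 of 10 central and 3 of 5 posterior genes were called higher, beside 1.13% of all such genes. Median log2 fold changes were 0.39 in the anterior, 0.45 in the central and 2.42 in the posterior class. Fold changes were positive for 2 of 2 anterior, 7 of 10 central and 3 of 5 posterior genes. The posterior median was the value of Hoxb9, within a range from -0.47 for Hoxd9 to 3.87 for Hoxc10. Hoxa10, also posterior, was negative at -0.37. The difference between the classes was not tested. The CPM ranges of the groups were apart with the NgBR-labelled libraries above for 16 of 26 tested genes, beside 9.21% of all tested genes, and below for 0, beside 9.37%. For the 7 genes that passed the filter in 0 wild-type libraries the ranges had to be apart. Of the 17 genes that passed it in all 3 wild-type libraries, 7 had the NgBR-labelled libraries above and 0 below, beside 7.82% and 9.9% of such genes in the table. The share below includes genes that passed through the wild-type libraries alone and so had to be lower.

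Sums over members are given as a description, with no test. Summed over the 38 genes, the level was 154, 108 and 133 CPM per kb in the NgBR-labelled libraries and 91.1, 63.9 and 95.3 CPM per kb in wild-type libraries. The Hoxb sum was 16.8 ± 5.24 CPM per kb in the NgBR-labelled libraries and 2.87 ± 0.472 in wild type, a ratio of 5.85, and its share of the Hox total was 12.5 ± 1.94% in the NgBR-labelled libraries and 3.64 ± 1.47% in wild type (SD, n = 3 each). The Hoxc sum was 21.8 ± 7.47 CPM per kb in the NgBR-labelled libraries and 7.14 ± 1.74 in wild type, a ratio of 3.06. The Hoxd sum was 29.5 ± 1.37 and 29.8 ± 4.50 CPM per kb in the NgBR-labelled libraries and wild type, a ratio of 0.990, and Hoxd8 and Hoxd9 made up most of both sums. The Hoxa sum was 63.6 ± 12.0 CPM per kb in the NgBR-labelled libraries and 43.7 ± 12.0 in wild type. The posterior genes of Hoxc held the highest ratio of any cluster and class, 11.7, at 7.16 ± 3.43 CPM per kb in the NgBR-labelled libraries and 0.613 ± 0.0334 in wild type. In bulk RNA a larger share of cells with a gene active and more RNA per cell cannot be told apart.

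**Figure D3:**
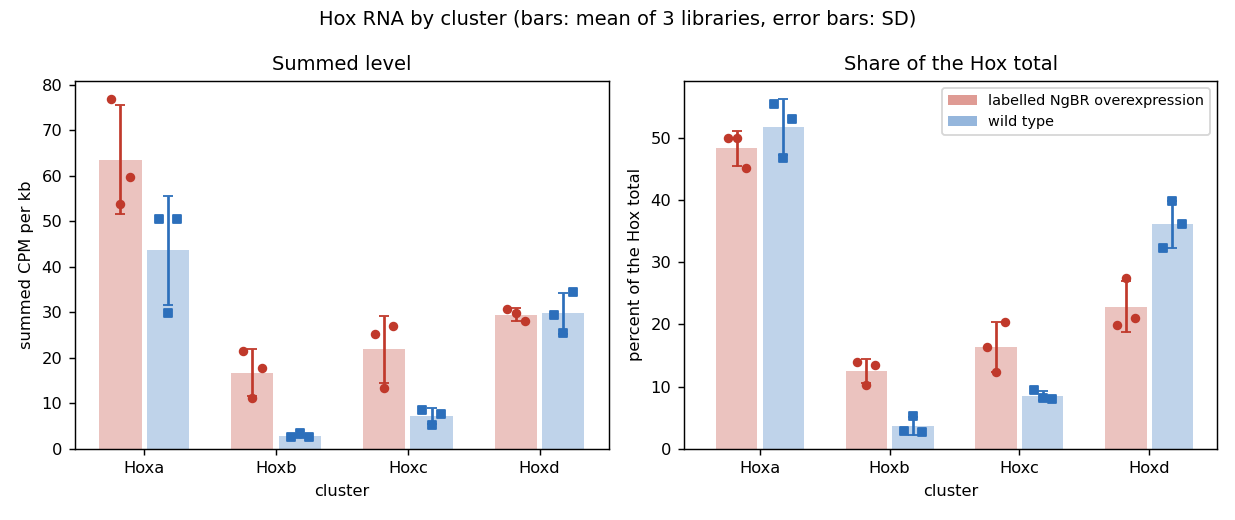
Summed level in CPM per kb (left) and percent of the Hox total (right) of each cluster. Bars are means of 3 libraries, error bars the SD and points single libraries, with the group labelled NgBR overexpression left of wild type. The Hoxb sum is 16.8 CPM per kb in the NgBR-labelled group against 2.87 in wild type, and the Hoxd sum is 29.5 in the NgBR-labelled group against 29.8 in wild type.

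Genes that rose lay beside genes that did not pass the test. The called genes with a tested, uncalled gene as their next tested neighbour gave 5 pairs, and since the calls chose the pairs their ratios are given with no test. Ratios within a pair compare counts, not length-scaled levels. Hoxd10 and Hoxd9 lie 2.60 kb apart, and the log2 ratio of Hoxd10 to Hoxd9 was -0.19, -0.79 and -1.88 in the NgBR-labelled libraries, against -4.68, -3.98 and -5.61 in wild-type libraries. Per kb, Hoxd10 reached 7.26 beside 7.03 CPM per kb for Hoxd9 in NgBR-labelled library 1, while it stayed between 0.282 and 0.671 CPM per kb in wild-type libraries, where Hoxd9 was between 8.98 and 11.7. Hoxc4 and Hoxc5, 1.50 kb apart, had log2 ratios of 2.20 ± 0.34 in the NgBR-labelled libraries and 0.93 ± 0.27 in wild type (SD, n = 3 each). The ratio of Hoxa13 to Hoxa10 was 1.09 ± 1.45 in the NgBR-labelled libraries and -5.38 ± 1.61 in wild type, and that of Hoxb4 to Hoxb3 was -0.05 ± 1.17 in the NgBR-labelled libraries and -1.68 ± 1.14 in wild type, with overlap for the Hoxb pair. For Hoxc9 and Hoxc8 the ratio was 1.49 ± 0.42 in the NgBR-labelled libraries and 1.71 ± 2.30 in wild type, with wide spread in wild type.

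The filter on low counts bears on how these counts can be read. The 7 Hox genes that passed it through the NgBR-labelled libraries alone were Hoxa13, Hoxb3, Hoxb4, Hoxb5, Hoxb8, Hoxc8 and Hoxd11. Such genes had to differ: 5 of these 7 were called higher, and so were 67.5% of the 120 genes of this kind in the whole table. The 5 genes called among the 17 free of this were Hoxb6, Hoxb9, Hoxc4, Hoxc10 and Hoxd10. This split by the filter was chosen after the values were seen. Of the 38 Hox genes 12 were not tested, 6 of them with 0 counts in all libraries (Hoxa11, Hoxb1, Hoxc12, Hoxd1, Hoxd12 and Hoxd13). At least 1 count was found for 29, 29 and 30 Hox genes in the NgBR-labelled libraries and for 30, 29 and 29 in wild-type libraries. With every library thinned to 7369961 counts, 29, 28 and 29 Hox genes had a count in the NgBR-labelled libraries and 25, 26 and 27 in wild-type libraries, and 22, 21 and 21 against 14, 13 and 12 had at least 10 counts.

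Some rows of neighbouring genes overlap. In the annotation, the span of Hoxc5 covers Hoxc6, Hoxc8 and Hoxc9 and part of Hoxc10, that of Hoxa3 covers Hoxa4, Hoxa5 and Hoxa6, and Hoxd3 and Hoxd4 share theirs. How reads in shared exons were assigned, and whether strand was used, is not stated in the sources used here, so that reads of a gene and of an overlapping or antisense partner cannot be told apart.

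The promoters of the called genes are shown as sequence because they lie in the stretch just before each start, where genes that rose can be set beside a neighbour that did not. RefSeq (GRCm38.p6, the assembly of mm10) had a promoter entry for 22 of the 38 members, including 6 of the called genes. The 250 bases before the start lie at chr6:52260881-52261130 (minus strand) for Hoxa13, chr11:96318017-96318266 (plus) for Hoxb4, chr11:96281655-96281904 (plus) for Hoxb8, chr15:103034145-103034394 (plus) for Hoxc4, chr2:74691641-74691890 (plus) for Hoxd10, chr2:74679308-74679557 (plus) for Hoxd11 and chr2:74697513-74697762 (plus) for the uncalled neighbour Hoxd9. The entry of Hoxc4 begins at an inner start, within the span given above. Capitals mark the motifs found, which were searched on both strands, so that some read as their reverse complement. They were TATAAA, the core of a basal promoter element, CCAAT, the box bound by NF-Y, AGGTCA, a half-site of nuclear receptors, and TGATNNAT, a joint site of Hox and Pbx proteins.
Hoxa13: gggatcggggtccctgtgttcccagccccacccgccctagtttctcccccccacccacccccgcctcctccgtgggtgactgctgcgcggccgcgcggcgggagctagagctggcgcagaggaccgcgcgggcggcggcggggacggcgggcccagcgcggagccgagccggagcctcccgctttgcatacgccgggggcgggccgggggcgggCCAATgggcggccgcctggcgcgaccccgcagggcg
Hoxb4: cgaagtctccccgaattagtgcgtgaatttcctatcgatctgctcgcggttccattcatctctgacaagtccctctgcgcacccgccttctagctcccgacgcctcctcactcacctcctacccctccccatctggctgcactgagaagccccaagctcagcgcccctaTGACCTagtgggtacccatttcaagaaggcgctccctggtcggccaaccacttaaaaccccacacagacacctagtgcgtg
Hoxb8: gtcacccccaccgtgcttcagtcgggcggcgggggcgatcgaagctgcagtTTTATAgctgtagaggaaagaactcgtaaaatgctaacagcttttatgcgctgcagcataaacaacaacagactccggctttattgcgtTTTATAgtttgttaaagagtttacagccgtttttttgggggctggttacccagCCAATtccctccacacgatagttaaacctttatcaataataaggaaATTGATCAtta
Hoxc4: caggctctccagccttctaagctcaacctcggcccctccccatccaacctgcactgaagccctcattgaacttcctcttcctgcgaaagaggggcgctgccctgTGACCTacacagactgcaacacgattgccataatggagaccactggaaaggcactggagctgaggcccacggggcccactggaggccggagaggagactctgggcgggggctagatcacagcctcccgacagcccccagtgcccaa
Hoxd10: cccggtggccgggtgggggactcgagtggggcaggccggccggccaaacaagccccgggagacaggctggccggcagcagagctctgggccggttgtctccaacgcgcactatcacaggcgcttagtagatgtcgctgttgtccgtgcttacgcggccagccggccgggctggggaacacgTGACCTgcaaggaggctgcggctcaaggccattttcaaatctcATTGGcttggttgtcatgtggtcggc
Hoxd11: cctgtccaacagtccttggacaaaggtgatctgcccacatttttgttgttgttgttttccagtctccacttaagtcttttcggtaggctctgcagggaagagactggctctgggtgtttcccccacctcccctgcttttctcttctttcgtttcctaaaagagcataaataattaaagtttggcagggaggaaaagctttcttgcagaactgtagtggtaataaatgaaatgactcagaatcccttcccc
Hoxd9: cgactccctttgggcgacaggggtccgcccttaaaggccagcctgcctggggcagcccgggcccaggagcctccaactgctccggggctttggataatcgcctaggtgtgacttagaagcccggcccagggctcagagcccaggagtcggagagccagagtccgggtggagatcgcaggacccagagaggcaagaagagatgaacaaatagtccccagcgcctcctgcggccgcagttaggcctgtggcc

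Hoxa13 held CCAAT with its first base 36 bases before the start, at -36, and Hoxd10 held CCAAT at -26 and AGGTCA at -69. Hoxb4 held AGGTCA at -81 and Hoxc4 at -146. Hoxb8 held TATAAA at -199 and -110, CCAAT at -57 and TGATNNAT at -11. Neither Hoxd11 nor the uncalled Hoxd9 held any of the 4 motifs, which says only that these letters are not in this window. Other uncalled genes did hold motifs. Hoxd8 held CCAAT at -62 and AGGTCA at -135, and Hoxd4 held TATAAA at -10, CCAAT at -208 and AGGTCA at -145. CCAAT was also found for the uncalled Hoxa2, Hoxa5 and Hoxa6, and Hoxa2 held TGATNNAT at -111. The uncalled Hoxa3, Hoxa7, Hoxa9 and Hoxa10 held none of the motifs. Like that of Hoxc4, the entries of Hoxa3, Hoxa7, Hoxa9 and Hoxd4 begin at inner starts, 269, 3281, 3719 and 10049 bases from the annotated start. These entries are among the 10 tested, uncalled entries below. Whether motifs go with the calls was not tested. Of the 22 Hox entries, 13.6% held TATAAA, 59.1% CCAAT, 27.3% AGGTCA and 13.6% TGATNNAT, beside 12.4%, 33.8%, 14% and 7.68% of 32851 promoter entries. The ratio of observed to expected CG dinucleotides ranged widely, with 0.97 for Hoxb8, 0.88 for Hoxa13 and 0.16 for Hoxd11, and had medians of 0.76 over the 6 called entries, 0.48 over the 10 tested, uncalled entries, 0.78 over the 6 untested entries, 0.60 over all 22 Hox entries and 0.37 over all entries. These matches are descriptions of the sequence.

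Of 21 rows for noncoding or antisense transcripts within 20 kb of the clusters 7 were tested and 1 was called higher, or 14.3%, beside 2.04% of all tested genes. The called transcript was Gm53, a long noncoding RNA between Hoxb13 and Hoxb9, at 14.2, 16.7 and 13.8 CPM in the NgBR-labelled libraries, against 7.62, 5.58 and 6.02 CPM in wild-type libraries. The groups did not overlap (log2 fold change 1.22 ± 0.25 SE, adjusted p = 0.0303 by edgeR), and the call was lost without any 1 library (edgeR adjusted p between 0.0644 and 0.161). Hotairm1, an antisense RNA of the anterior Hoxa cluster, was not called (log2 fold change 0.41, adjusted p = 0.796 by edgeR), nor were Hoxaas2 (0.33, adjusted p = 0.845) and Hoxd3os1 (-0.43, adjusted p = 0.814). Hotair, a transcript of the Hoxc cluster, had 3 counts over the NgBR-labelled libraries and 10 over wild type and was not tested, and Hottip, at the posterior end of Hoxa, had 0 counts in every library.

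Coding genes outside the clusters had fold changes centred near 0. Of 40 flanking coding genes, 5 on each side of each cluster, 30 were tested, 1 was called higher and 0 lower, with a median log2 fold change of -0.05. The 3.33% called higher stands beside 2.04% of all tested genes. At an unadjusted p under 0.05 2 were higher and 2 lower, and DESeq2 called 1 higher and 1 lower. The called gene was Chn1, which encodes chimaerin, 893.0 kb past the posterior end of Hoxd, at 1.55 ± 0.292 CPM in the NgBR-labelled libraries and 0.271 ± 0.0909 CPM in wild type (log2 fold change 2.47 ± 0.47 SE, adjusted p = 0.0229 by edgeR). Chn1 passed the filter through the NgBR-labelled libraries alone, so that its positive direction was fixed. Of the 120 genes of this kind in the whole table, 67.5% were called higher. The call of Chn1 was lost without any 1 library (edgeR adjusted p between 0.0595 and 0.109). The nearest tested genes beside Hoxa were Skap2 and Hibadh, with log2 fold changes of -0.06 and -0.21, and those beside Hoxd were Lnp and Mtx2, with -0.15 and 0.05. Beside Hoxc, Calcoco1 had 0.36 and Smug1 0.09. Beside Hoxb, Snx11 had -0.62 and Ttll6, 28.9 kb past the posterior end, -3.12 (edgeR adjusted p = 0.0883), with 5 counts in the NgBR-labelled libraries and 152 in wild type. Ttll6 passed the filter through the wild-type libraries alone, so that its negative direction was fixed.

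**Figure D4:**
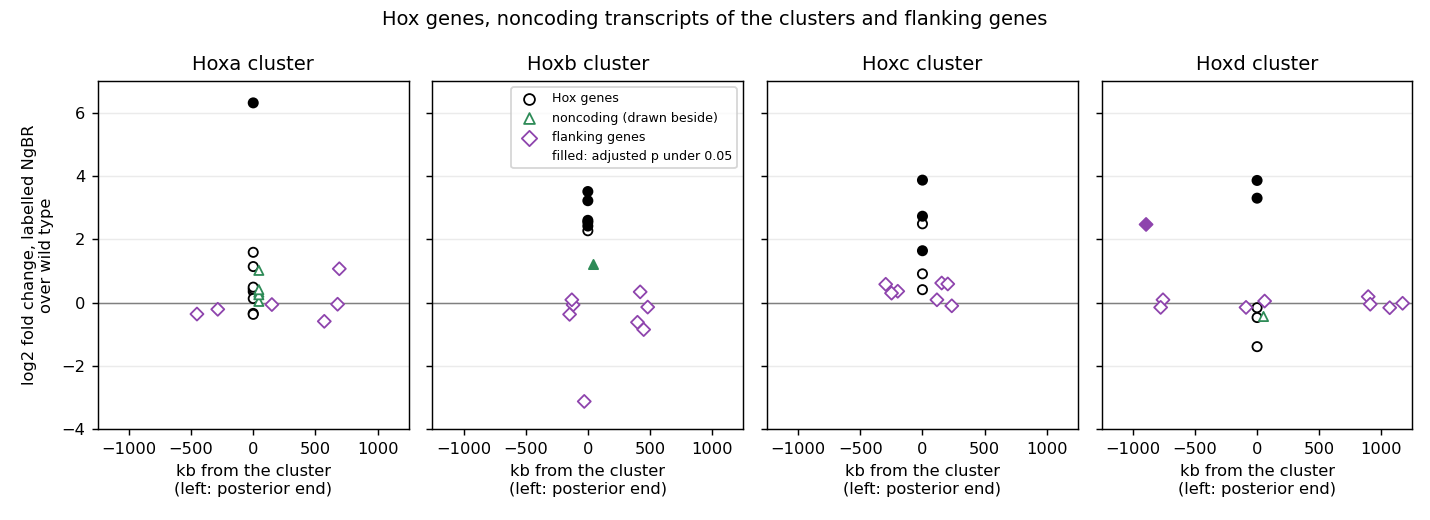
Log2 fold change, libraries labelled NgBR overexpression over wild type, of tested genes, against distance from the cluster in kb with the posterior end to the left. Circles are Hox genes, triangles noncoding transcripts (drawn a little to the right so that they can be seen) and diamonds flanking genes, and called genes are filled. The tested Hox genes of Hoxb and Hoxc lie above 0, some of them by the filter. Most flanking points lie near 0 except Ttll6 at -3.12 and Chn1 at 2.47, both with a direction fixed by the filter.

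Partners of Hox proteins, regulators of Hox genes, and transcription factors of other position and limb programs were counted in lists. Of 79 tested genes in these lists 6 were called higher and 0 lower by edgeR, beside 2.04% of all tested genes called higher. The last list held 15 of the 79 and 2 of the 6. At an unadjusted p under 0.05 17 were higher and 6 lower, beside 797 and 647 of all 12651 tested genes. DESeq2 called 8 higher and 2 lower, beside 446 and 273 of the 12651. Among 8 tested TALE homeodomain cofactors Pknox2 rose, at 3.65, 3.56 and 2.01 CPM in the NgBR-labelled libraries and 0.315, 0.643 and 0.391 CPM in wild-type libraries (log2 fold change 2.76 ± 0.46 SE, adjusted p = 0.011 by edgeR). Pknox2 lost the call without library 1 labelled NgBR (edgeR adjusted p = 0.0653) or wild-type library 1 (0.0594). Of 30 tested Polycomb genes 1 was called, Jarid2, an accessory subunit of PRC2, at 35.1 ± 11.7 CPM in the NgBR-labelled libraries and 13 ± 2.98 CPM in wild type (log2 fold change 1.43 ± 0.30 SE, adjusted p = 0.0331 by edgeR). The call of Jarid2 was lost without any 1 library (edgeR adjusted p between 0.0561 and 0.0999). At an unadjusted p under 0.05 6 Polycomb genes were higher and 1 lower, and DESeq2 called 2 higher and 0 lower. Fold changes were positive for 21 of the 30. The CPM ranges were apart with the NgBR-labelled libraries above for 7 and below for 1, beside 9.21% and 9.37% of all tested genes. Of 14 tested Trithorax and related genes 0 were called by edgeR or DESeq2, with 1 at an unadjusted p under 0.05, and the abundant Kmt2d and Kmt2a had 0.21 and 0.18.

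Among 12 tested upstream regulators, 8 of them retinoid genes, 2 rose, in a list drawn up with the rise of Rarb known. Rarb, a retinoic acid receptor, was at 10.1, 16.2 and 13.9 CPM in the NgBR-labelled libraries and 0.573, 0.406 and 0.542 CPM in wild-type libraries (log2 fold change 4.71 ± 0.34 SE, adjusted p = 0.000294 by edgeR). Cyp26b1, which breaks down retinoic acid, was at 333, 177 and 184 CPM in the NgBR-labelled libraries, against 41.4, 59.0 and 34.9 CPM in wild-type libraries (log2 fold change 2.36 ± 0.33 SE, adjusted p = 0.00482 by edgeR). For both genes the ranges of the groups were apart. The other 6 tested retinoid genes were not called, with log2 fold changes from -1.13 for Aldh1a1, which makes retinoic acid, to 0.61 for the receptor gene Rara, and 4 of the 6 were negative. Rara and Rarg also had every labelled library above every wild-type library. Over the 8 tested retinoid genes the labelled libraries were above for 4 and below for 0, with 3 higher and 0 lower at an unadjusted p under 0.05. Of 15 tested transcription factors of other position and limb programs 2 were called higher, or 13.3%, beside 2.04% of all tested genes, and 0 lower. The list had 7 positive and 8 negative fold changes, with a median of -0.26. At an unadjusted p under 0.05 3 were higher and 5 lower, and DESeq2 called 3 higher and 2 lower. The CPM ranges were apart with the NgBR-labelled libraries above for 3 and below for 6. The 2 called were Lmx1b of the dorsal limb (log2 fold change 4.36 ± 0.65 SE, adjusted p = 0.00653 by edgeR) and Six2 of the kidney and face (log2 fold change 4.50 ± 0.69 SE, adjusted p = 0.00719 by edgeR). Lmx1b had 154 counts in the NgBR-labelled libraries and 27 in wild type, and Six2 had 99 in the NgBR-labelled libraries and 16 in wild type. Both passed the filter through the NgBR-labelled libraries alone, so that their positive direction was fixed. Of the 120 genes of this kind in the whole table, 67.5% were called higher. Six2 was at 3.70 without library 1 labelled NgBR and 5.30 without both libraries numbered 2. Whether any of these genes acts on the Hox genes was not tested.

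The fibroblast label was checked against marker lists. All 8 fibroblast markers were present, with sums of 19700 to 31800 CPM in the NgBR-labelled libraries and 19600 to 24400 CPM in wild-type libraries, and 0 of 8 were called by edgeR or DESeq2, with 0 at an unadjusted p under 0.05. Epithelial markers summed to 0.297 to 0.982 CPM in the NgBR-labelled libraries and 0.0338 to 0.301 CPM in wild type, with Epcam, Krt18 and Cldn4 at 0 counts in all libraries. Pluripotent and germ line markers summed to 0.198 to 0.421 CPM in the NgBR-labelled libraries and 0.237 to 0.512 CPM in wild type, with Pou5f1, Zfp42, Dppa3 and Dazl at 0 counts. Endothelial sums were 0.842 to 2.10 CPM in the NgBR-labelled libraries and 0.643 to 0.945 CPM in wild type, and leukocyte sums 2.10 to 3.15 CPM in the NgBR-labelled libraries and 1.42 to 3.76 CPM in wild type. Sums were higher in the NgBR-labelled libraries for markers listed as skeletal muscle, at 4.35 to 16.6 CPM against 1.59 to 3.25 CPM in wild type, with Myod1 and Myog at 0 counts. Most of the labelled sums was Tnnt2, the gene of cardiac troponin T, which is not specific to skeletal muscle. It was at 13.5, 2.28 and 11 CPM in the NgBR-labelled libraries and 1.09, 0.744 and 2.17 CPM in wild-type libraries. Sums were also higher for neural markers, at 10.4 to 24.4 CPM in the NgBR-labelled libraries against 7.75 to 9.99 CPM in wild type, with Syt1 called on 17 counts in the NgBR-labelled libraries and 2 in wild type. Syt1 passed the filter through the NgBR-labelled libraries alone, so that its direction was fixed. Of the 2 tested muscle markers 0 were called by edgeR and 1 by DESeq2, with 2 higher at an unadjusted p under 0.05, and both Tnnt2 (log2 fold change 2.72, adjusted p = 0.0571 by edgeR) and Des (1.37, adjusted p = 0.154) had ranges apart. Of the 4 tested neural markers 1 was called by edgeR and 2 by DESeq2, with 2 higher at an unadjusted p under 0.05, and all 4 had positive fold changes, Map2 among them (1.58, adjusted p = 0.0562 by edgeR). The part of either list in the Hox values was not tested.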

How the data were processed

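The authors deposited unnormalized read counts for each gene in 6 libraries. The submitters' processing notes name HISAT2 (2.0.5), featureCounts (1.5.0-p3), DESeq2 and the build mm10. Annotation release, strand setting and filters are not stated in the sources used here. Coordinates, exonic lengths and gene classes came from GENCODE M21 (97.8% of identifiers matched). The members and lists were chosen with earlier results of these data known. Of 39 rows matching the name rule, 38 are described, and 1 is not reported here.

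Genes were kept by filterByExpr and compared by the quasi-likelihood F test of edgeR (4.0.16, under R 4.3.3), with TMM factors and no covariate, on the counts as deposited by the authors, at a Benjamini-Hochberg adjusted p under 0.05. CPM used TMM-scaled totals, and levels per kb used GENCODE exonic length. Genes named in full were every called member and, per cluster, the 2 uncalled tested members with the highest level per kb. Called or most abundant noncoding, flanking and list genes were also named, with the nearest tested flanking genes. Hoxa9, Hoxb3 and the other low members, Aldh1a1, Rara, Tnnt2, Des, Map2, Syt1, Hotair and Hottip were named after their values were seen. Counting intervals are exact, at 95%, and cover counting error only. The test was checked on simulated counts of 12478 genes, in which 12% of genes changed 2-fold and 81% of genes changed 4-fold were called, with 4 false among 97 calls. The alternatives were DESeq2 1.42.0, RLE and no composition factors, no filter, 1 CPM in 3 libraries, thinning, a replicate block, an offset for exonic length, and leaving out libraries.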

Additional observations from a re-analysis of the deposited data

How the results depend on the processing

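All 11 called Hox genes had positive fold changes under every alternative run in which they were tested, and the count of Hox genes called lower was 0 in each. The count of called Hox genes, all higher, was 11 with RLE or no composition factors and without both libraries numbered 2, 14 with DESeq2, 13 with no filter on low counts, 12 with an offset for exonic length and 9 with a minimum of 1 CPM in 3 libraries. It was 7 with all libraries thinned to the smallest, when 17 Hox genes were tested, and from 6 to 10 without 1 library, 6 without library 1 and 7 without library 3 labelled NgBR. Of the 11, 6 (Hoxa13, Hoxb5, Hoxb6, Hoxb9, Hoxc10 and Hoxd10) were called whichever library was left out. Hoxa13 and Hoxd11 were not tested with thinning or the minimum of 1 CPM, nor Hoxb4 and Hoxb8 with thinning. Over all genes 429 calls became 719 with DESeq2, 688 with no filter and 225 to 374 without 1 library. The noncoding count of 1 became 0 with thinning and 0 without any 1 library. The flanking count of 1 became 2 with DESeq2, 2 with no filter, 0 with thinning and 0 without any 1 library. The count of 6 over partner, regulator and other position genes became 10 with DESeq2 and was 4 to 6 without 1 library. The cause of these shifts was not tested. Under thinning fewer Hox genes were tested, while Gm53 and Chn1 were tested and lost the call (edgeR adjusted p = 0.0949 and 0.152). With 7369961 to 10358381 counts in the NgBR-labelled libraries, low members such as Hoxd3 and Hoxd4 are poorly resolved there. Some genes that passed no test changed sign. Without 1 library the log2 fold change ranged from -0.0052 to 0.57 for Hoxa2, -0.29 to 0.36 for Hoxa4, -0.035 to 0.72 for Hoxc5, -0.18 to 0.085 for Skap2, -0.24 to 0.021 for Lnp, -0.17 to 0.16 for Mtx2, -0.45 to 0.52 for Kmt2a and -0.28 to 0.55 for Kmt2d. Without both libraries numbered 2 it was -0.037 for Hoxaas2, 0.031 for Lnp, -0.21 for Kmt2a and -0.012 for Kmt2d, and with no filter it was -0.001056 for Mtx2.

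Correlations between the deviations of same-numbered libraries were 0.0147, 0.341 and 0.434. Whether the numbers pair the libraries cannot be told from these values, and the main fit used no pairing. With the replicate number as a block, 12 Hox genes were called higher and 0 lower, with Hoxa5 gained (edgeR adjusted p = 0.0111). The block gave 719 calls over all genes, 2 flanking genes, 1 noncoding transcript and 9 partner, regulator and other position genes. Library 1 labelled NgBR had correlations near 0 with each wild-type library (0.0147, -0.0186 and 0.0174), while libraries 2 and 3 correlated best with their own numbers.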
